A study of Mus musculus with 8 samples.

Results

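The semaphorins with their plexin and neuropilin receptors, the ephrins with the Eph receptors, and the netrins with the Unc5 receptors were followed in spatial transcriptomes of the embryonic mouse diaphragm. Members were taken by symbol from the probe set: every symbol that begins with Sema3 to Sema7, Plxna to Plxnd, Efna, Efnb, Epha, Ephb or Ntn (followed by a digit or by g), together with Nrp1, Nrp2 and Unc5a to Unc5d. This gave 63 of 19465 genes, namely 20 semaphorins, 9 plexins, 2 neuropilins, 8 ephrins, 14 Eph receptors, 6 netrins including the netrin-G genes Ntng1 and Ntng2, and 4 Unc5 receptors.

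Transcripts were counted on Visium slides, on which each spot captures probes from a disc of tissue that holds several cells, in 8 horizontal sections of formalin-fixed diaphragm. The control group held 3 sections at E14.5 (embryonic stage in days after conception) and 2 at E18.5, when the muscle is further grown. The mutants were CaV1.1 -/- embryos (CaV1.1 KO, the dysgenic mouse, which lacks the voltage sensor and calcium channel of skeletal muscle), with 1 section at E14.5 and 1 at E18.5, and bCat cKO embryos at E18.5, with 1 section. In the bCat cKO the β-catenin gene carries flox sites on both alleles and the HSA-Cre transgene, driven by a skeletal actin promoter, removes it in skeletal muscle fibers, so other cells of the diaphragm keep it. The controls are labelled only as control. By the study's methods they carried at least 1 working allele each of CaV1.1 and β-catenin, which allows heterozygous embryos among them, and strain, sex and litter were not given in the sources used here. By the same methods, KO embryos came from CaV1.1 +/- parents, in some crosses with floxed β-catenin alleles and HSA-Cre. The bCat cKO came from such a cross, whose parents were CaV1.1 +/-. The genotype of each mutant section at the other gene was not given. Each mutant group is a single section from a single diaphragm, so its tests assume that it varies as the controls do, and nothing in the labels shows that control sections came from separate litters.

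The sections held 14179161 to 82859104 UMIs (unique molecular identifiers, which count captured probe molecules) over 683 to 3460 spots with at least 1000 UMIs, and the members took 0.137% to 0.247% of the UMIs. In each section, spots were divided into muscle spots (491 to 3092, high for 9 skeletal muscle genes) and other tissue (102 to 580 spots). UMIs were summed per section and compartment and are given as CPM (counts scaled to the same library total, with TMM factors), so that 1 sum is 1 sample. All sections used the same fixed set of spot barcodes, and 150 to 2153 barcodes were shared by pairs of sections. Cacna1s, which encodes CaV1.1, lay in muscle spots at 84.4 and 87.3 CPM in the E18.5 controls and at 29.7 CPM in the E18.5 KO, below both, but at E14.5 the KO (13.4 CPM) lay only a little below the controls (16.5, 15 and 18.4 CPM). The 9 skeletal muscle genes were lower too in the E18.5 KO (median log2 fold change -1.29). Whether Cacna1s fell beyond them was not tested. Ctnnb1, the β-catenin gene, was at 96.2 CPM in the bCat cKO and at 105 and 97.4 CPM in the E18.5 controls; since a probe outside the deleted exons reads the transcript all the same and other cells of a spot keep the gene, this value checks nothing. Because each gene is read by its own probes, levels are compared between samples and not between genes.

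Semaphorins, ephrins and netrins are secreted or membrane-bound cues that guide axons, blood vessels and migrating cells, mostly by repulsion or attraction at short range. Class 3 semaphorins bind neuropilins, which signal through A-type plexins, and Sema3e binds Plxnd1 directly; class 4 semaphorins act mainly through B-type plexins, class 6 through Plxna2 and Plxna4 among others, and Sema7a through Plxnc1 and integrins. Ephrins and Eph receptors signal in both directions between touching cells, and netrins attract through Dcc and repel through Unc5 receptors. In the diaphragm the phrenic nerve grows along a central band where endplates form, while vessels and tendon cells take up other positions.

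All 63 members gave UMIs somewhere, from 39 UMIs over all sections for Epha8 to 73744 for Plxnb2. A UMI of Plxnb2, a receptor for class 4 semaphorins, was found in 84.9% to 96.7% of spots of a section, and one of Epha10 in 0% to 0.515%. Between 59 and 62 members passed the filter on low counts in each test. In muscle spots Epha10 alone did not pass.

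The first comparison asked where the members lay, muscle spots against the other tissue of the same control sections. At E14.5, 9 of 61 tested members were higher in muscle and 24 were lower (edgeR quasi-likelihood F test with section as a block, adjusted p under 0.05 over all genes), which is 54.1% of the members beside 41.0% of all 14126 genes called. The members' median log2 fold change was -0.32, and that of all genes 0.01. At E18.5, 7 were higher and 34 lower, 67.2% of the members beside 57.9% of all genes, with medians of -0.53 and -0.01. At E18.5, 31.1% of all genes were called higher in muscle and 26.8% lower. For E14.5 the shares of all genes by direction are not given here, so its counts by direction have only the medians beside them. No ephrin and no Eph receptor was called higher in muscle at either stage, whereas 4 and 6 of 8 ephrins and 6 and 8 of 12 tested Eph receptors were called lower. Of the semaphorins 3 were higher and 7 lower at E14.5, and 2 higher and 11 lower at E18.5. The other tissue was not a single cell type: summed hepatocyte markers in it ran from 2.06 to 13638 CPM between sections and adrenal cortex markers reached 1524 CPM in control E14.5 section 1, and their part in the muscle differences was not tested.

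Among the secreted cues, Sema3a, a repellent of motor and sensory axons, was higher in the other tissue. On the scale of this fit, its levels in muscle were 46.0, 48.4 and 60.6 CPM in the 3 E14.5 controls, and 91.7, 124 and 133 CPM in the other tissue of the same sections. At E18.5 the levels were 19.6 and 19.1 CPM in muscle and 66.1 and 57.2 CPM outside. The compartments did not overlap at either stage, and the log2 fold change was -1.16 (SE 0.09, edgeR quasi-likelihood adjusted p = 0.000213) and -1.67 (SE 0.11, adjusted p = 5.74e-05). Sema3d, another class 3 cue, was lower in muscle by 1.92 on the log2 scale at E14.5 (adjusted p = 0.00274) and by 2.36 at E18.5 (adjusted p = 0.00127). Sema3c, a cue for vessels and cardiac neural crest, had a log2 fold change of -0.83 at E14.5 and -0.53 at E18.5, and the second call was lost without control E18.5 section 1 (adjusted p = 0.187). Ntn1, the prototype netrin, lay at 26.2 and 34.0 CPM in E18.5 muscle and at 72.3 and 111 CPM in the other tissue, with a log2 fold change of -1.59 (adjusted p = 5.88e-05). At E14.5 that of Ntn1 was -0.82 (adjusted p = 0.000868).

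Other members pointed the opposite way. Sema6b, a transmembrane semaphorin, was at 77.4, 65.4 and 65.7 CPM in E14.5 muscle against 33.6, 23.8 and 21.6 CPM outside. At E18.5 Sema6b lay at 28.2 and 26.1 CPM in muscle and at 10.5 and 12.1 CPM outside. The fold changes were 1.38 (SE 0.10, adjusted p = 0.0002) and 1.26 (SE 0.13, adjusted p = 0.000245) on the log2 scale. Unc5a, a repulsive netrin receptor known from neurons, was at 52.9, 40.4 and 45.9 CPM in E14.5 muscle and at 23.4, 16.9 and 21.6 CPM outside, a log2 difference of 1.19 (SE 0.08, adjusted p = 0.000167). At E18.5 the difference of Unc5a was 1.40 (SE 0.11, adjusted p = 8.09e-05). Ntn5, a little-studied secreted netrin, was higher in muscle by 1.86 (SE 0.30, adjusted p = 0.00342) and 2.95 (SE 0.31, adjusted p = 0.000241), Ntng2, a membrane-anchored netrin relative, by 0.90 and 1.58, and Plxna2, a receptor for class 3 and class 6 semaphorins, by 1.12 and 1.22. Ntn4, a netrin of basement membranes, was higher by 1.42 at E14.5 (adjusted p = 0.00359) and by 0.83 at E18.5 (adjusted p = 0.0252), where the call was lost without control E18.5 section 2 (adjusted p = 0.284). Sema3b, a secreted repellent, was called higher in muscle at E14.5 alone among the stages (log2 fold change 1.58, adjusted p = 0.000277), and the difference between stages was not tested.

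Of the receptors, 2 plexins were higher and 2 lower in muscle at E14.5, and 1 higher and 3 lower at E18.5, of 9 tested. The Eph receptors that were called were lower, 6 and 8 of 12, 1 neuropilin was lower at each stage, and of the 4 Unc5 receptors 1 was higher at each stage and 1 and then 2 lower. Nrp2, a co-receptor for class 3 semaphorins, was at 36.3, 35.0 and 42.3 CPM in E14.5 muscle against 73.7, 65.4 and 88.4 CPM outside (log2 fold change -0.99, adjusted p = 0.000692), and at E18.5 its fold change was -0.73 (adjusted p = 0.0023). Unc5c, another netrin receptor, was lower by 1.85 (SE 0.21, adjusted p = 0.000821) and 2.21 (SE 0.28, adjusted p = 0.000642) on the log2 scale, and Epha7 by 1.28 and 0.84. Plxna1, a plexin of class 3 signalling, was higher in muscle at E14.5 (0.40, adjusted p = 0.00392), a call that was lost with total UMIs (0.0624). Ephb4, the venous receptor of Efnb2, was lower by 0.36 and 0.35, calls that were lost at E14.5 without any 1 of the 3 controls (adjusted p up to 0.0781) and at E18.5 without section 2 (0.298). Epha4, a receptor for both ephrin classes on motor axons, was lower at E14.5 (-0.48, adjusted p = 0.0416), which was lost without section 2 or 3 of that stage (up to 0.168). Unc5b, the vascular netrin receptor, was lower at E18.5 (-0.65), with an adjusted p of 0.0569 without section 2. Plxna4 was lower at E14.5, at 6.45, 10.4 and 7.59 CPM in muscle against 29.5, 31.7 and 10.2 CPM outside. Efna3, Epha1, Epha5 and Ntng1 were called lower at both stages, and Sema4g at E18.5. Of the ephrins Efnb2, an arterial ligand, was lower at E14.5 (-0.95, adjusted p = 0.00141), and Efnb1 (-0.88, adjusted p = 0.00362) and Efna5 (-1.28, adjusted p = 0.0024) were lower at E18.5. Among the 12 largest differences, Epha5 (without control E14.5 section 1, adjusted p = 0.0652), Sema4a (without section 1 or 2, up to 0.151) and Epha1 (without section 1 or 2, up to 0.178) lost their E14.5 calls, and Sema4f (without control E14.5 section 2 or control E18.5 section 2, up to 0.773), Sema4a (without control E18.5 section 1, 0.106) and Efna3 (without control E18.5 section 2, 0.0561) their E18.5 calls.

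Both stages, which share no section, called 6 members higher in muscle, namely Ntn4, Ntn5, Ntng2, Plxna2, Sema6b and Unc5a. They were 6 of the 9 and 6 of the 7 higher calls. The members called lower at both stages were 21 of 24 and 21 of 34, and none was called in opposite directions. The share of all genes called alike at both stages was not computed, and both stages came from 1 fit with a shared spread. Dividing by total UMIs in place of TMM moved the median of all genes by -0.20 at E14.5 and -0.68 at E18.5, and the call of Sema6c, higher in muscle at E18.5, then turned its direction.

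**Figure D1:**
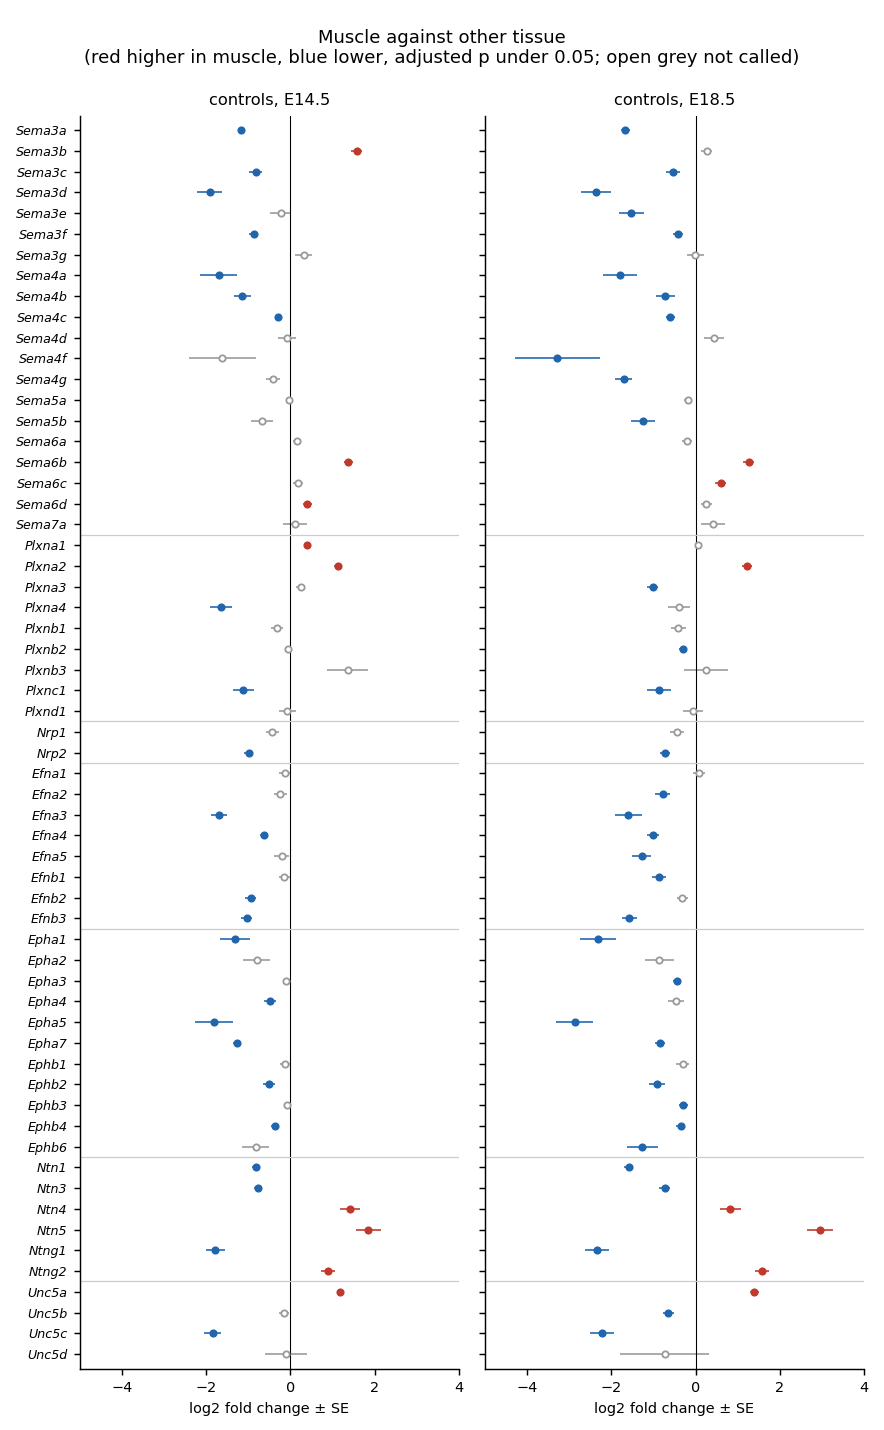
Log2 fold change of each tested member in muscle spots against other tissue of the same control sections at E14.5 (3 sections) and E18.5 (2 sections); points are edgeR estimates, bars are ±1 SE, red is called higher, blue called lower and open grey not called. Epha6 is not drawn because it was at 0 in a group; the blue points outnumber the red at both stages, 24 against 9 and 34 against 7.

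Distance to the edge of the muscle gave gradients of several of these members. Spots were binned by their distance to the nearest spot of the other compartment, and CPM were taken per bin without TMM. Of the members, 26 were lower in muscle spots over 250 µm from the edge than in those within 150 µm of it in every control, and 6 (Ntn5, Plxna2, Sema4d, Sema6b, Sema7a and Unc5a) were higher in every control. These are 41.9% and 9.68% of the 62 members tested in muscle, beside 24.3% and 7.08% of 14824 genes. On this scale the median log2 ratio of the inner to the outer spots was -0.15 over all genes and -0.34 over the members, so a lean to lower values was present in all genes. Sema3a in the 5 controls ran from 120, 150, 142, 65.5 and 66.7 CPM just outside, through 62.1, 76.4, 104, 23.6 and 31.0 CPM in the outermost muscle bin, to 39.1, 37.1, 60.5, 10.9 and 9.65 CPM in the innermost. Its level fell at each of these steps in all 5. Ntn1 fell in the same order at E18.5, from 68.0 and 115 CPM outside over 29.3 and 59.0 CPM to 14.8 and 17.1 CPM inside. In the bCat cKO the 3 outer bins of Ntn1 held 237, 225 and 166 CPM, above the same bin of every control. Efnb1, a ligand for EphB receptors, had these levels within muscle: in the outermost and innermost muscle bins it lay at 74.8 and 74.0, 74.6 and 76.6, and 67.6 and 80.9 CPM in the E14.5 controls, and at 27.8 and 22.0, and 35.1 and 21.2 CPM in the E18.5 controls. Neighbouring spots were most alike for Sema3d, Ntn1 and Sema3a, whose Moran's I (spatial autocorrelation of spot values, where 0 is none) had medians over the 8 sections of 0.228, 0.210 and 0.195.

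**Figure D2:**
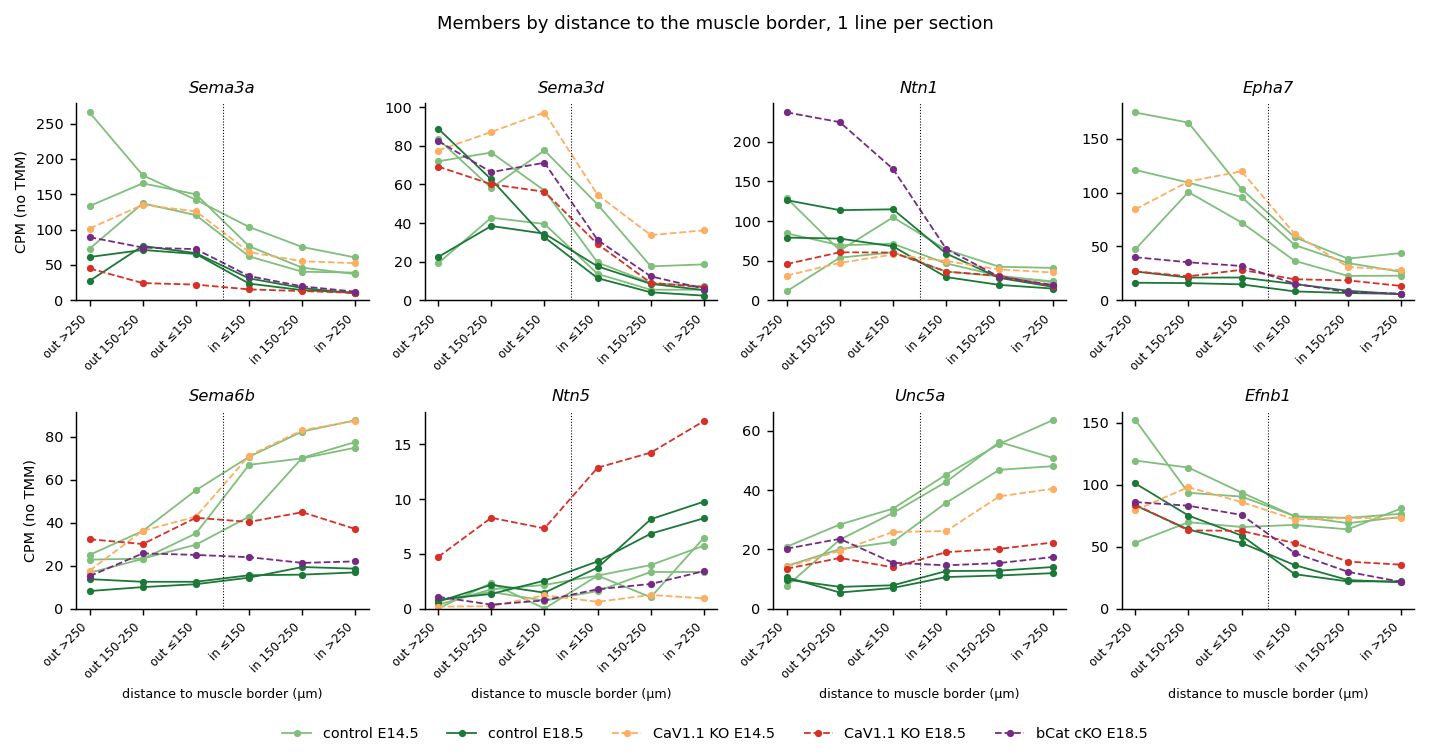
Levels of 8 members (CPM without TMM, y axis) by distance of the spot to the muscle border in µm (x axis, outside to inside) with 1 line per section. From the bin just outside to the innermost muscle bin, Sema3a, Sema3d, Ntn1 and Epha7 are lower inside in all 8 sections, and Sema6b, Ntn5 and Unc5a are higher inside in all 5 controls; the innermost bin of Efnb1 lies at 74.0 to 80.9 CPM in the E14.5 controls and at 22.0 and 21.2 CPM in the E18.5 controls.

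The members were then compared between E18.5 and E14.5 in muscle spots of the controls. Of 62 tested members, 18 were higher and 30 lower at E18.5 (edgeR quasi-likelihood F test, adjusted p under 0.05), 77.4% beside 65.6% of all 14832 genes called (33.2% higher and 32.3% lower). The members' median was -0.27 and that of all genes -0.01 on the log2 scale. The families divided: 6 of 8 ephrins, 8 of 13 tested Eph receptors and 3 of 4 Unc5 receptors fell, with 1, 2 and 0 that rose, while 8 semaphorins rose and 7 fell, 2 plexins rose and 4 fell, both neuropilins rose, and 3 netrins rose and 2 fell. Cell markers moved over the same interval. All 9 skeletal muscle genes rose (summed 17723 to 23875 CPM at E14.5 and 176910 and 180330 CPM at E18.5), as did all 8 endothelial genes (286, 401 and 314 CPM, then 970 and 897 CPM), and 4 of 5 tested cartilage genes, whose sum was 1339 CPM in control E18.5 section 1 and 97.0 CPM in section 2. The part of these markers in the members' changes was not tested, and in tissue spots fewer cells of a type and less RNA per cell cannot be told apart. Control E14.5 section 3 was processed with the Space Ranger version of the E18.5 sections and lay apart from the other E14.5 controls for some members, with Efna1 at 13.4 CPM against 26.4 and 30.2 CPM and Sema3d at 17.5 CPM against 7.30 and 9.56 CPM; the part of the version was not tested.

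Sema3c rose among the secreted cues. It lay at 19.2, 24.0 and 21.8 CPM in the E14.5 controls and at 61.6 and 69.0 CPM at E18.5, without overlap (log2 fold change 1.59, SE 0.11, edgeR adjusted p = 1.27e-05). Ntng2 rose from 12.9, 13.0 and 10.9 CPM to 61.1 and 45.7 CPM (2.12, SE 0.14, adjusted p = 1.02e-05), and Ntn5 from 3.72, 2.28 and 4.27 CPM to 10.5 and 12.4 CPM (1.77, SE 0.25, adjusted p = 0.000433). Sema7a, a membrane-anchored semaphorin, rose from 5.62, 6.03 and 4.46 CPM to 21.6 and 12.9 CPM (1.67, SE 0.23). The E18.5 controls of Sema7a differed from each other by more than the whole E14.5 range. In the opposite direction Sema3a fell from 41.5, 42.9 and 54.2 CPM to 17.4 and 16.6 CPM (-1.44, SE 0.13, adjusted p = 4.71e-05), and Sema6b from 69.9, 58.0 and 58.7 CPM to 25.1 and 22.7 CPM (-1.38, SE 0.11, adjusted p = 2.6e-05). Ntn4 rose by 0.34 (adjusted p = 0.0252), a call that was lost without control E14.5 section 2 or 3 or control E18.5 section 2 (adjusted p up to 0.119) and whose direction turned to -0.38 under total UMIs. Sema3d and Ntn1 were not called. Sema3d lay at 7.30, 9.56 and 17.5 CPM and then at 4.94 and 9.01 CPM, and Ntn1 at 29.3, 24.4 and 35.1 CPM and then at 23.3 and 29.6 CPM, with overlap for both.

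The ephrins fell together apart from Efnb2 and Efna1. Efna4 went from 26.0, 27.9 and 29.9 CPM to 6.16 and 5.58 CPM (-2.25, SE 0.12, adjusted p = 2.96e-06), Efna3 from 5.45, 6.31 and 5.84 CPM to 0.563 and 0.956 CPM (-2.95, SE 0.27, adjusted p = 4.67e-05), and Efnb3 by 1.95 on the log2 scale. Efna1, Efna3 and Efna4 lie side by side on chromosome 3 (GRCm38, 89271730 to 89280951, 89313899 to 89322939 and 89333393 to 89338028), yet Efna1 was at 26.4, 30.2 and 13.4 CPM at E14.5 and at 38.1 and 35.5 CPM at E18.5, a difference that was not called. Efnb1 fell from 63.5, 61.4 and 62.1 CPM to 31.2 and 30.8 CPM (-1.01, SE 0.08, adjusted p = 1.83e-05) and Efna5 was 2.14-fold lower (adjusted p = 0.00221). Efnb2 rose from 16.0, 19.5 and 17.1 CPM to 36.1 and 40.2 CPM (1.12, SE 0.11, adjusted p = 6.59e-05).

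Among the receptors Plxna4, which takes part in class 3 and class 6 signalling, rose from 5.83, 9.26 and 6.78 CPM to 37.1 and 36.6 CPM, the largest increase of any member (2.32, SE 0.17, adjusted p = 1.66e-05). Plxnd1, the Sema3e receptor of endothelium, rose from 83.6, 123 and 93.7 CPM to 210 and 185 CPM (0.98, SE 0.16), Nrp1 by 0.92 (SE 0.08) and Nrp2 by 0.56 (SE 0.10); these 3 calls were lost when total UMIs replaced TMM, which moved the median of all genes by -0.72, and Nrp2 then turned to -0.16. Unc5c fell from 6.71, 6.42 and 10.6 CPM to 1.82 and 1.41 CPM (-2.27, SE 0.27, adjusted p = 0.000171), Unc5d by 3.56, Epha7 by 1.75, Plxna3 by 1.60, Epha4 by 1.06 and Plxna1 by 0.38. Epha6 fell by 3.96 (SE 0.76), from at most 0.778 CPM. Epha8 gave 3, 10 and 8 UMIs in the E14.5 controls and 0 in both E18.5 controls, which is at least 5.05-fold lower against a floor of 3 counts per library. Ephb4 and Unc5b were not called and their groups overlapped, at 44.8, 55.9 and 54.2 CPM and then 52.2 and 58.2 CPM for Ephb4 and 23.4, 26.5 and 22.1 CPM and then 27.5 and 23.4 CPM for Unc5b.

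**Figure D3:**
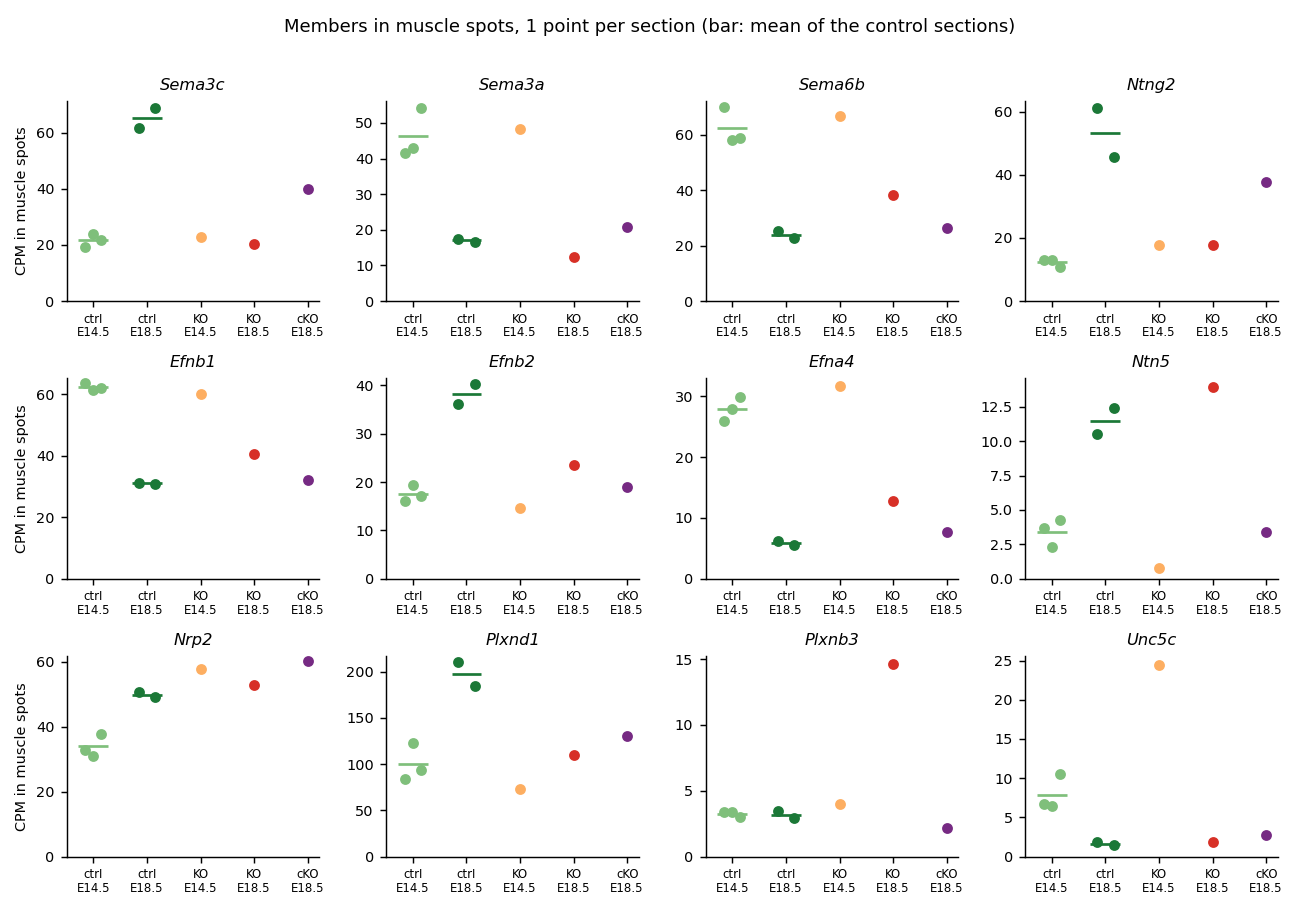
Levels of 12 members in muscle spots (TMM-scaled CPM, y axis) in each of the 8 sections, ordered by group on the x axis; each point is 1 section. Sema3c and Ntng2 are highest in the E18.5 controls, followed by the bCat cKO, while the E18.5 KO section lies at 20.4 and 17.6 CPM.

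Position along the muscle fibers was addressed by comparing the muscle center, the 15% of muscle spots that scored highest for 8 endplate genes, with the muscle periphery, the 15% that scored highest for 4 myotendinous genes. At E14.5, 10 of 59 tested members were higher in the center and 16 lower (edgeR quasi-likelihood F test with section as a block), 44.1% beside 20.4% of all 14170 genes called (11.8% higher and 8.65% lower). At E18.5, 13 were higher and 10 lower, 39.0% beside 20.9% of all genes (11.8% higher and 9.14% lower). The E18.5 count was 14 without either control of that stage. The members' median was -0.16 at E14.5 and 0.02 at E18.5, and that of all genes 0.01 and 0.02. Eph receptors were called only lower (5 and 2 of 12), while ephrins moved from 1 higher and 2 lower at E14.5 to 4 higher and 1 lower at E18.5. Schwann cell markers were higher in the center (5 and 7 of 7) and tendon markers lower (7 of 7 at both stages). Skeletal muscle genes were also higher in the center, 6 of 9 at E14.5 and 4 of 9 at E18.5 (median log2 fold change 0.32 and 0.16). Fibroblast genes were lower at E14.5 (5 of 7), while at E18.5 3 were higher and 1 lower. Other marker lists held calls too, and the part of all these markers in the members' differences was not tested.

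The stages share no section, and the same 5 members were called higher in the center at both: Efnb1, Ntn5, Plxnb3, Sema6b and Unc5a, 5 of the 10 and 5 of the 13. Because these were called at both stages, the 250 bases before their RefSeq start (assembly GRCm38.p6, transcribed strand, 5′ to 3′) are shown, with any match to the letters CAGCTG (an E-box, the kind bound by myogenic factors) in capitals. The letters CCGGAA (an N-box, known from synaptic muscle genes) were searched on both strands and lie in none of these 5 windows. Among 32851 windows of the same length, 4271 held the E-box (13.0%) and 3952 the N-box, and the 55 members with a window included 10 and 7 that held them. The 2 motifs do not overlap in these windows, a match is a description of the letters alone, the Ntn5 window lies within an intron of Sec1 on the other strand, and 13 bases of the Plxnb3 window overlap an exon of an annotated Plxnb3 transcript. Sema6b has a second RefSeq start, whose window (chr17:56133853-56134102, within the gene) held neither motif and is not shown. The Unc5a and Plxnb3 windows lie within the RefSeq spans of their genes (chr13:54945151-55006018 and chrX:73756556-73772510), so they do not precede the whole gene.
Efnb1, chrX:99135811-99136060, plus strand: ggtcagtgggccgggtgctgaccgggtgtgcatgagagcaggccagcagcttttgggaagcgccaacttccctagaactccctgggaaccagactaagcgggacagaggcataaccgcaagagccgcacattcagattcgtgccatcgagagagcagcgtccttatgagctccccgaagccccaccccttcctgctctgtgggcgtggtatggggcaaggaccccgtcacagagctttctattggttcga
Ntn5, chr7:45683772-45684021, plus strand: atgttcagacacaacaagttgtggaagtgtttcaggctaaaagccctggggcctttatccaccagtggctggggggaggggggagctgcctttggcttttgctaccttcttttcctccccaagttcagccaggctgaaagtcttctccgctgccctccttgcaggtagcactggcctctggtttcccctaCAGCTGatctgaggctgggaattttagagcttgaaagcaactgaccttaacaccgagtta
Plxnb3, chrX:73756853-73757102, plus strand: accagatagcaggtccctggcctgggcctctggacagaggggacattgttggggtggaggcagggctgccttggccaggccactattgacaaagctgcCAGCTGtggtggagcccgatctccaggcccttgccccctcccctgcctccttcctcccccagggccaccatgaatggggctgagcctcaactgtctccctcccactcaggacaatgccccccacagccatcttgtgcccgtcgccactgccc
Sema6b, chr17:56140344-56140593, minus strand: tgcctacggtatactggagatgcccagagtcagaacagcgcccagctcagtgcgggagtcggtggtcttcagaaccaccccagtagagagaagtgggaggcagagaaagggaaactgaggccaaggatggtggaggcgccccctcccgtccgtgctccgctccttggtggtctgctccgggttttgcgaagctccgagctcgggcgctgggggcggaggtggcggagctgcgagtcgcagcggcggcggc
Unc5a, chr13:54949161-54949410, plus strand: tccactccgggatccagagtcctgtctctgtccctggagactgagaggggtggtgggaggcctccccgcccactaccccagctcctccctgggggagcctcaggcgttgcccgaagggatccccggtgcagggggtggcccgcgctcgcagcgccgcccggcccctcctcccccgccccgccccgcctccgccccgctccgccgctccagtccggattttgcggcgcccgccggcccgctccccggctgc
The Ntn5 E-box begins 60 bases and the Plxnb3 E-box 152 bases before the start.

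Sema6b was higher in the center. Its levels in center and periphery were 101 and 51.5, 98.8 and 44.8, and 78.7 and 49.4 CPM in the E14.5 controls, and 33.5 and 19.9, and 29.9 and 16.8 CPM at E18.5. The center was higher in 5 of 5 control sections, by 0.98 (SE 0.09, edgeR adjusted p = 1.85e-10) and 0.78 (SE 0.12, adjusted p = 3.45e-06) on the log2 scale. Unc5a was at 51.7 and 36.0, 54.7 and 25.3, and 50.3 and 31.4 CPM at E14.5 and at 24.4 and 16.5, and 22.0 and 12 CPM at E18.5. Its differences were 0.81 (adjusted p = 2.73e-06) and 0.69 (adjusted p = 0.000381). Plxnb3, a plexin known from glia, was higher by 1.24 (SE 0.35) at E14.5, where the call was lost without section 1 or 2 (adjusted p up to 0.279), and by 1.75 (SE 0.28, adjusted p = 1.59e-05) at E18.5. Ntn5 was higher by 1.07 and 0.84, calls that were lost at E14.5 without section 1 or 3 (up to 0.319) and at E18.5 without section 2 (0.171). Efnb1 was at 78.3 and 58.2, 77.7 and 49.2, and 70.6 and 52.4 CPM at E14.5 (0.53, SE 0.08, adjusted p = 8.02e-06). At E18.5 Efnb1 was at 61.3 and 25.6, and 54.7 and 24.8 CPM (1.20, SE 0.09, adjusted p = 3.24e-12), with 25.8 and 27.0 CPM in the intermediate spots. With regions set by distance to the border in place of the scores, its E18.5 direction turned (-0.19). That center held 2406 of 3092 and 1798 of 2199 muscle spots of the E18.5 controls, against 444 and 319 by score. At E18.5 the regions set by distance thus compared most of the muscle with its edge and could not test the endplate band. With these regions the calls of Plxnb3 at E18.5 (adjusted p = 0.437) and of Efnb1 at E14.5 (0.118) were lost, and without the section block that of Unc5a at E18.5 (0.0601).

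Sema3c, Sema3a and Ntn1 were among the members that were lower in the center. Sema3c in center and periphery was at 9.93 and 42.1, 13.1 and 53.5, and 10.1 and 30.2 CPM in the E14.5 controls, with a log2 fold change of -1.96 (SE 0.16, adjusted p = 2.7e-11). At E18.5 the pairs of Sema3c were 55.4 and 76.8, and 61.1 and 77.1 CPM (-0.41, adjusted p = 0.000971), a call that was lost without section 1 (0.0774). Sema3a was lower in the center by 0.89 (SE 0.10, adjusted p = 1.1e-08) and 0.55 (adjusted p = 0.000399), the latter lost without section 2 (0.132), and Ntn1 by 0.98 (SE 0.12, adjusted p = 7.63e-08) and 0.60 (SE 0.10, adjusted p = 1.57e-05). Ntng1, like Ntng2 a membrane-anchored netrin relative, was lower by 1.39 and 1.84, calls that were lost at E14.5 without section 2 or 3 (up to 0.338) and at E18.5 without section 2. Epha4 was lower by 0.72 (adjusted p = 4.72e-07) and 0.49 (adjusted p = 0.000921), lost at E18.5 without section 2 (0.117), and Ntng2 by 0.99 and 0.31. These 6 (Epha4, Ntn1, Ntng1, Ntng2, Sema3a and Sema3c) were the members called lower at both stages, 6 of the 16 and 6 of the 10, and none was called in opposite directions. The share of all genes called alike was not computed here either. At E14.5 alone, Sema3d (-1.01, adjusted p = 0.000895), Nrp2 (-0.65, adjusted p = 8.2e-05), Sema3f (-1.20, adjusted p = 6.86e-09), Efna3 (-1.58, adjusted p = 0.000154), Ephb4 (-0.27, lost without section 1 or 2, up to 0.129) and Unc5d (-2.00, lost without section 1 or 2, up to 0.324) were called lower, and Sema3e (1.61, SE 0.25, adjusted p = 6.82e-06) and Plxna1 (0.28, lost without section 1 or 2, up to 0.252) higher. At E18.5 alone, Sema4d (0.81, adjusted p = 6.48e-06), Sema3g (0.83, lost without section 1, 0.0658), Sema7a (0.81, lost without section 1, 0.0845), Efna5 (0.74, lost without section 2, 0.0992) and Efnb2 (0.34, lost without section 1, 0.387) were called higher, and Epha5 (-0.99, lost without section 1 or 2, up to 0.422) and Efnb3 (-0.86, lost without section 1 or 2, up to 0.224) lower; the Efna5 direction turned with regions set by distance (-0.19). The E14.5 calls of Sema3e (adjusted p = 0.158) and Ntng2 (0.847) were lost with those regions, and without the section block those of Sema3d at E14.5 (0.25) and Ntn1 at E18.5 (0.145).

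The change of the center-to-periphery difference with stage was tested directly, a comparison added after the data were seen. It was called for 13 members, 10 of which moved toward the center at E18.5 and 3 toward the periphery, 22.0% beside 8.17% of all genes. The count fell to 7 without control E14.5 section 1 or control E18.5 section 1 and to 8 without control E14.5 section 2. Cell markers shifted in the same comparison, toward the center for 4 of the 8 endplate genes that define it, 3 of 5 macrophage, 3 of 4 erythrocyte and 3 of 7 fibroblast genes (1 fibroblast gene the opposite way), and toward the periphery for 3 of 7 tendon genes, and their part in the members' changes was not tested. Sema3c (1.55, SE 0.19, adjusted p = 5.91e-07) and Sema3f (1.25, SE 0.15, adjusted p = 8.91e-07) held under every alternative that was run. Sema3f, a ligand of Nrp2, lay in center and periphery at 12 and 27.2, 13.8 and 30.3, and 10.5 and 28.1 CPM at E14.5, and at 29.5 and 28.3, and 38.5 and 37.7 CPM at E18.5. All 3 early sections were thus lower in the center and both late sections were about level. Sema5a (0.69, adjusted p = 0.000175) and Efnb1 (0.67, adjusted p = 0.00037) held without any 1 section, although Sema5a was lost without the section block (0.137) and Efnb1 (-0.34) and Efna5 (-0.33, from 0.75) turned with regions set by distance. Nrp2, lower in the center at E14.5 and not called at E18.5, changed by 0.54 (adjusted p = 0.0159), a call that was lost without control E14.5 section 1 or 2 or control E18.5 section 1 (up to 0.149), and Efna5 was lost without control E18.5 section 2 (0.219).

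**Figure D4:**
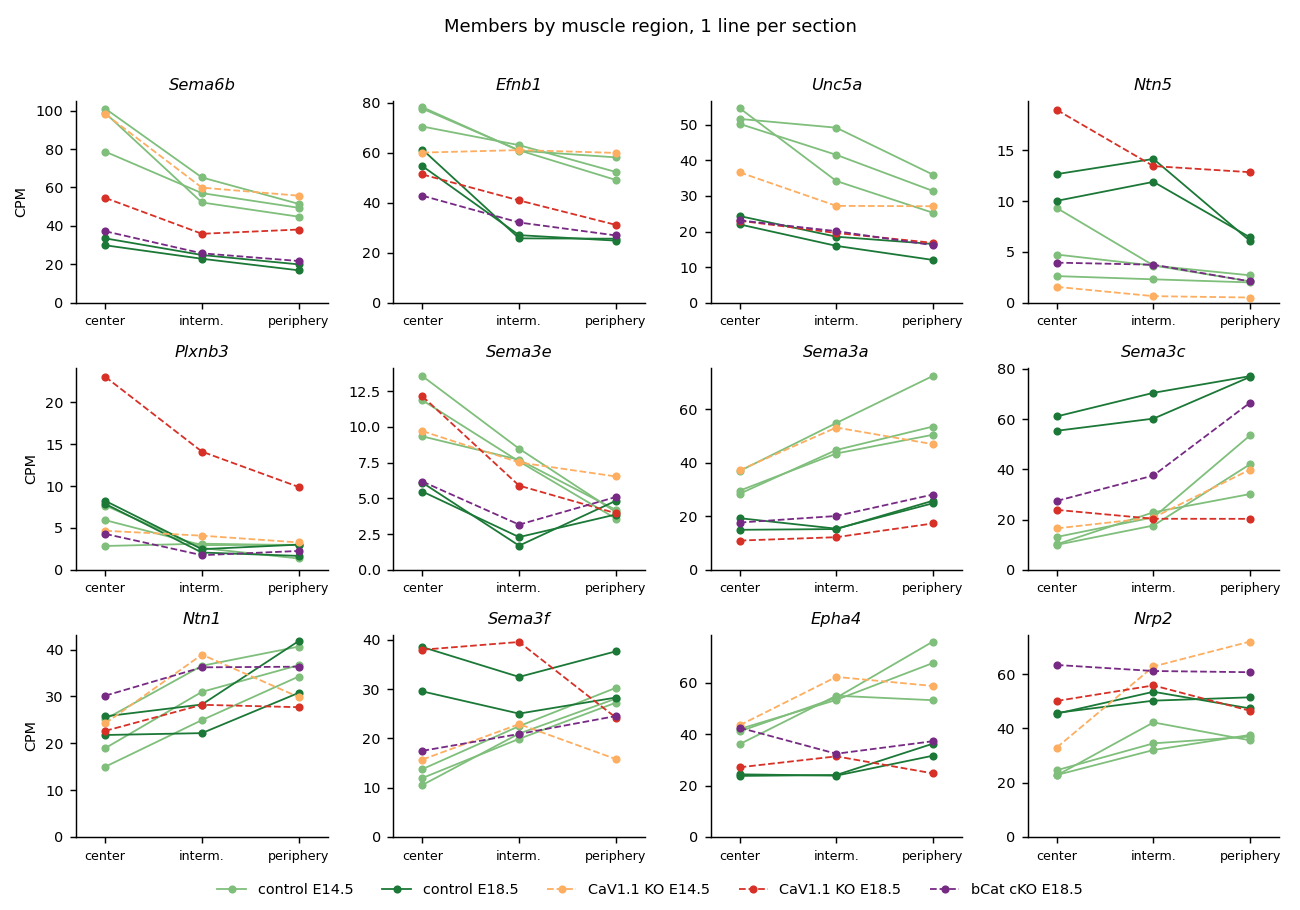
Levels of 12 members (TMM-scaled CPM, y axis) in the center, intermediate and periphery spots of muscle (x axis), with 1 line per section colored by group. In each of the 5 controls the periphery lies below the center for Sema6b, Unc5a and Efnb1 (the latter with these regions, since at E18.5 its direction turned with regions set by distance) and above it for Sema3a and Ntn1; Efnb1 is about level in the E14.5 KO (60.1, 61.1 and 60.0 CPM), and Sema3f is higher in the periphery in the 3 E14.5 controls and in the bCat cKO (17.5 and 24.5 CPM).

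In muscle spots of the E14.5 CaV1.1 KO, 2 of 62 members were called, both higher, which is 3.23% beside 2.08% of all genes; 15 members had an unadjusted p under 0.05. Unc5c lay at 24.4 CPM in the KO and at 6.71, 6.42 and 10.6 CPM in the controls (log2 fold change 1.64, SE 0.28, edgeR adjusted p = 0.0335). Nrp2 lay at 57.6 CPM against 32.8, 31.0 and 37.8 CPM (0.77, SE 0.12, adjusted p = 0.0297). The KO section was above every control for both, but both calls depended on single sections: Unc5c was lost without control E14.5 section 1 or 2 (up to 0.0706) and Nrp2 without any 1 of the 3 (up to 0.0613), and no member was called without section 1. Leaving out muscle spots at the border with other tissue also left none called. Macrophage markers were higher in this section (2 of 5 called, summed 188 CPM against 108, 100 and 111 CPM), and their part in these differences was not tested. Sema3a (48.4 CPM), Sema3c (22.8 CPM) and Ntn1 (34.1 CPM) lay within the range of the E14.5 controls, and Sema3d, at 33.8 CPM against 7.30, 9.56 and 17.5 CPM, lay above it without being called.

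At E18.5 the CaV1.1 KO differed for more members. Of 62, 19 were higher and 6 lower, 40.3% beside 25.7% of all genes called, and the members' median was 0.28 beside 0.00. Of all genes, 10.6% were called higher and 15.2% lower. Of the 8 ephrins 4 were higher and 1 lower, 5 of 13 Eph receptors were higher and none lower, 5 semaphorins were higher and 2 lower, and 3 plexins were higher and 1 lower. The count was 16 without control E18.5 section 1, and 16 when border spots were left out. The same section had all 9 skeletal muscle genes lower (summed 67445 CPM against 176910 and 180330 CPM), 6 of 7 Schwann cell markers higher (227 against 90.5 and 103 CPM), 6 of 8 endothelial markers lower (591 against 970 and 897 CPM) and 3 of 5 macrophage markers higher (359 against 148 and 195 CPM). Further marker lists moved in this section. The median log2 fold change was -1.56 for the 4 myotendinous genes, -0.48 for tendon, -0.71 for fibroblast and -4.14 for cartilage genes. It was -0.49 for smooth muscle and pericyte genes, 0.52 for mesothelium and 0.55 for the 8 endplate genes. The part of these markers in the members' differences was not tested.

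The members that fell included ligands of vessels and nerves. Sema3c lay at 20.4 CPM against 61.6 and 69.0 CPM in the controls (-1.68, SE 0.17, adjusted p = 0.00146), a level inside the range of the E14.5 controls, and Ntng2 at 17.6 CPM against 61.1 and 45.7 CPM (-1.60, SE 0.21, adjusted p = 0.00294). Efnb2 lay at 23.5 CPM against 36.1 and 40.2 CPM (-0.70, adjusted p = 0.0168), which was lost without border spots (adjusted p = 0.0542). Sema3b was lower by 0.68 (adjusted p = 0.017). Plxnd1 lay at 110 CPM against 210 and 185 CPM (-0.85, adjusted p = 0.0303), a call that was lost without control E14.5 section 3 or control E18.5 section 1 (up to 0.0699). Unc5b was lower by 0.56, lost without control E14.5 section 1 or 3 or control E18.5 section 1 (up to 0.111).

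Plxnb3 showed the largest increase, at 14.6 CPM against 3.45 and 2.91 CPM (2.20, SE 0.22, adjusted p = 0.00141). Sema5b, a transmembrane semaphorin, lay at 12.1 CPM against 4.49 and 3.74 CPM (1.55, SE 0.21, adjusted p = 0.00331), Sema4g at 8.41 CPM against 2.84 and 3.41 CPM (1.43) and Sema3e at 6.44 CPM against 2.91 and 3.02 CPM (1.12, SE 0.21, adjusted p = 0.00841). Sema6b was higher by 0.67 (38.1 CPM against 25.1 and 22.7 CPM, adjusted p = 0.0152). The KO lay above both controls for each. Of the ephrins, Efna4 was at 12.8 CPM against 6.16 and 5.58 CPM (1.12, adjusted p = 0.00297) and Efnb3 at 6.78 CPM against 2.62 and 3.15 CPM (1.24, adjusted p = 0.00682), and Ephb1 and Ephb2, receptors of B-type ephrins, were higher by 1.31 (adjusted p = 0.00246) and 1.11 (adjusted p = 0.0123). Efnb1 was higher by 0.39, lost without control E14.5 section 2 or 3 or either E18.5 control (up to 0.0633), Unc5d by 2.02, lost without any 1 of the E14.5 controls or control E18.5 section 1 (up to 0.113), and Epha5 by 1.52, lost without control E14.5 section 2 or 3 or either E18.5 control (up to 0.134). The calls that held under every alternative run were 11: Efna4, Efnb3, Ephb1, Ephb2, Ntng2, Plxnb3, Sema3c, Sema3e, Sema4g, Sema5b and Sema6b. Sema3a (12.4 CPM against 17.4 and 16.6 CPM), Nrp1 (36.5 against 38.5 and 36.5 CPM), Nrp2 (52.8 against 50.6 and 49.0 CPM) and Ntn1 (26.8 against 23.3 and 29.6 CPM) were not called.

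The stage and KO comparisons share the E18.5 controls with opposite signs. Noise in these 2 sections alone thus moves the paired values in opposite directions. The values of the 2 comparisons are set side by side as a description. For Sema3c they were 1.59 for E18.5 against E14.5 and -1.68 for the KO, for Ntng2 2.12 and -1.60, for Efna4 -2.25 and 1.12, for Sema6b -1.38 and 0.67, for Sema3a -1.44 with no call in the KO, and for Plxna4 2.32 with no call in the KO. Whether the KO effect itself differed between E18.5 and E14.5 was tested as an interaction added after the data were seen. It was called for 11 members, 8 of which were higher and 3 lower, 17.7% beside 6.4% of all genes. Sema3c (-1.75, SE 0.22, adjusted p = 0.0193) and Ntng2 (-2.13, SE 0.27, adjusted p = 0.0206) had the lowest adjusted p among the lower ones and Plxnb3 (1.90, SE 0.32, adjusted p = 0.0257) among the higher ones, and Ntn5 changed by 2.34 (SE 0.53, adjusted p = 0.0439), from 0.797 CPM in the E14.5 KO against 3.72, 2.28 and 4.27 CPM to 13.9 CPM in the E18.5 KO against 10.5 and 12.4 CPM. No member was called without control E14.5 section 3 (0.0709 for both Sema3c and Ntng2), 3 were called without control E14.5 section 2, which ended the call of Plxnb3 (0.076 at most), and 7 without control E18.5 section 1, which like control E14.5 section 1 ended that of Ntn5 (up to 0.0972). Scaled to total UMIs the interaction was called for 30 members, with the median of all genes moved by 0.53, and the KO comparison at E18.5 for 42, with a shift of 0.54.

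The center-to-periphery difference in the KO was compared with that in the controls. At E14.5 it was called for 2 of 59 members, 3.39% beside 0.141% of all genes. Ntng2 lay at 24.4 CPM in the center and 15.6 CPM in the periphery of the KO, where each control was lower in the center (8.35 and 17.2, 10.3 and 20.1, and 6.08 and 11.7 CPM), a difference of 1.64 (SE 0.29, adjusted p = 0.00821) that was lost without control E14.5 section 1 (0.0698). Sema3f lay at 15.7 and 15.8 CPM in the KO (1.19, SE 0.25, adjusted p = 0.0451), which was lost without control E14.5 section 1 or 2 or either E18.5 control (up to 0.118). At E18.5 edgeR called none (0.614% of all genes), with 4 members at an unadjusted p under 0.05, and DESeq2 called none as well. Center and periphery in the E18.5 KO were 51.3 and 31.2 CPM for Efnb1, 54.6 and 38.1 CPM for Sema6b, 23.0 and 9.89 CPM for Plxnb3, and 10.9 and 17.3 CPM for Sema3a, each on the same side as in the controls. Of the 11 members called in the same direction at both stages in the controls, 8 lay on that side in this section. Sema3c (23.9 and 20.3 CPM), Epha4 (27.1 and 24.7 CPM) and Ntng1 (2.02 and 1.98 CPM) lay on the opposite side, without a call of the difference.

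**Figure D5:**
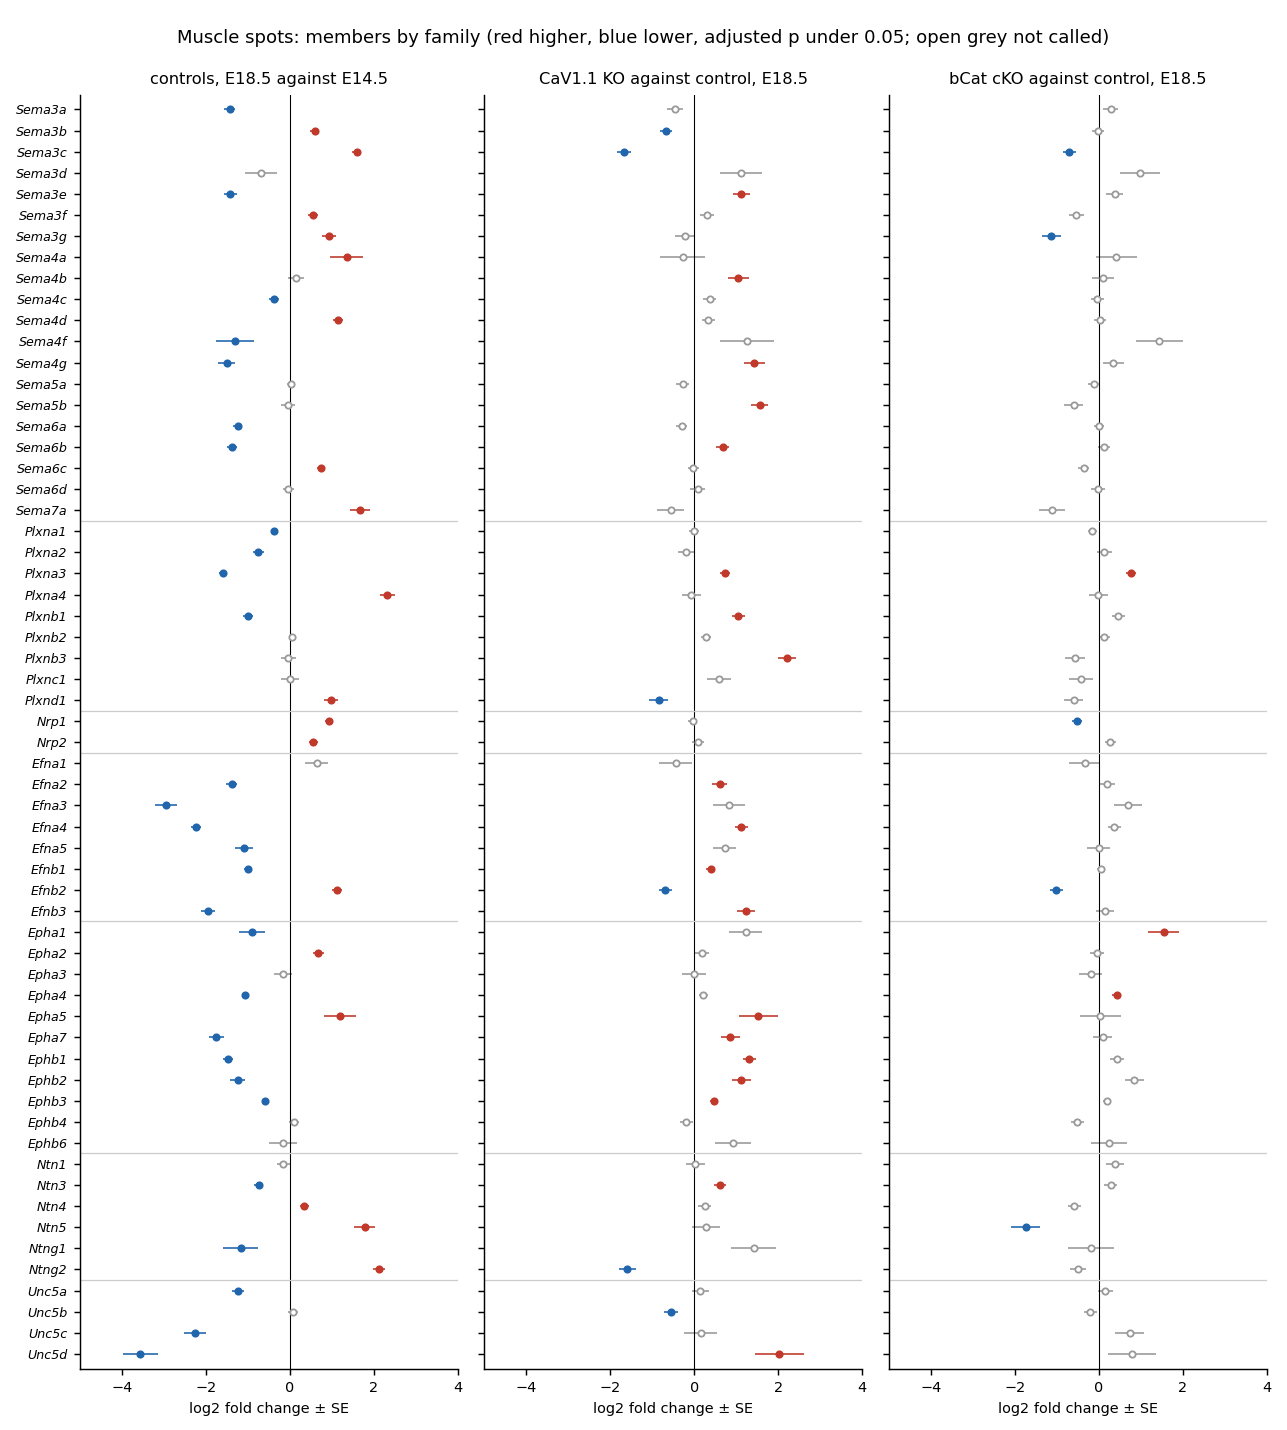
Log2 fold changes of each tested member in muscle spots for E18.5 against E14.5 in controls, the E18.5 CaV1.1 KO against control and the bCat cKO against control; points are edgeR estimates with bars of ±1 SE, red called higher, blue called lower and open grey not called. Epha6 and Epha8, at 0 in a group, are not drawn; Sema3c and Ntng2 are red on the left and blue in the KO, and the 3 panels share the E18.5 controls.

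In muscle spots of the bCat cKO, 3 of 62 members were higher and 5 lower, 12.9% beside 8.8% of all genes called. Without control E14.5 section 3, which enters through the shared estimate of the spread and the filter on low counts, 3 were called, and without section 2, 5. Efnb2 lay at 18.9 CPM against 36.1 and 40.2 CPM (-1.01, SE 0.15, edgeR adjusted p = 0.0107) and Plxna3, a semaphorin receptor, at 20.3 CPM against 11.5 and 12.4 CPM (0.76, SE 0.11, adjusted p = 0.00927). These 2 calls held under every alternative run. Sema3c lay at 40.1 CPM against 61.6 and 69.0 CPM (-0.70, adjusted p = 0.0336), lost without control E14.5 section 3 or control E18.5 section 2 (up to 0.0809), Ntn5 at 3.42 CPM against 10.5 and 12.4 CPM (-1.75, adjusted p = 0.0266), lost without control E18.5 section 2 (0.0597), and Sema3g, a semaphorin of endothelium, at 6.80 CPM against 17.5 and 12.3 CPM (-1.14, adjusted p = 0.0261), lost without control E14.5 section 3 (0.0663). The cKO lay below both controls for all of these. Nrp1 was lower by 0.52 (26.2 against 38.5 and 36.5 CPM), Epha4 higher by 0.43 (34.0 against 25 and 25.6 CPM) and Epha1 higher by 1.54 (3.47 against 0.872 and 1.52 CPM). Nrp1 was lost without control E14.5 section 2 or 3 or either E18.5 control (up to 0.0735), Epha4 without any 1 of the 5 controls (up to 0.0915) and Epha1 without any 1 E14.5 control or control E18.5 section 1 (up to 0.0903). Endothelial markers were at 575 CPM against 970 and 897 CPM (2 of 8 called lower) and macrophage markers at 282 CPM against 148 and 195 CPM (2 of 5 called higher), and their part was not tested. Efnb1, at 32.2 CPM against 31.2 and 30.8 CPM, Sema6b, at 26.2 CPM against 25.1 and 22.7 CPM, and Ntng2, at 37.9 CPM against 61.1 and 45.7 CPM, were not called. The center-to-periphery difference was changed for 1 member, Sema3c (1.69% beside 1.26% of all genes), which lay at 27.4 CPM in the center and 66.6 CPM in the periphery of the cKO. This difference of -0.87 (SE 0.19, adjusted p = 0.0143) was lost without control E18.5 section 2 (0.0524).

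In the other tissue of the controls, 7 of 62 members were higher and 15 lower at E18.5 than at E14.5, 35.5% beside 30.6% of all genes called. The count was 12 without control E14.5 section 2, 14 without control E18.5 section 1 and 9 without control E18.5 section 2. In the same spots all 9 skeletal muscle genes rose, as did 6 of 8 endothelial, 5 of 7 tendon, 5 of 7 fibroblast (with 1 lower), 4 of 7 mesothelial and 4 of 7 smooth muscle and pericyte genes, and their part in the members' changes was not tested. Efna3, Efna4, Epha7, Unc5a and Unc5c, all lower, and Sema3b, higher, held under every alternative run. Efna3 lay at 18, 35.5 and 20.6 CPM and then at 2.17 and 3.96 CPM (-3.02, SE 0.46, edgeR adjusted p = 0.00646), and Unc5c at 29.9, 37.2 and 37.0 CPM and then at 8.01 and 12 CPM (-1.78, SE 0.23, adjusted p = 0.00441). Sema3b rose from 17.6, 15.9 and 11 CPM to 74.1 and 52.0 CPM (2.03, SE 0.24, adjusted p = 0.00322). Epha5 (2.33), Ntng2 (1.56), Sema3c (1.32), Sema3g (1.30), Plxnd1 (1.03) and Nrp1 (0.98) were also called higher, and Efnb3 (-1.31), Sema6b (-1.21), Epha4 (-1.06) and Sema3a (-0.87) lower. Each of these 10 lost its call when a control section was left out (adjusted p up to 0.167): Sema3c without control E18.5 section 1, Epha5 and Plxnd1 without control E18.5 section 2, Efnb3 without control E14.5 section 2, Sema6b without either E18.5 control, Ntng2 without control E14.5 section 2 or 3 or control E18.5 section 1, Nrp1 without control E14.5 section 2 or 3 or control E18.5 section 2, and Sema3g, Sema3a and Epha4 without control E14.5 section 2 or 3 or either E18.5 control. Epha6 gave 7, 30 and 2 UMIs at E14.5 and 0 in both E18.5 controls, at least 3.40-fold lower against the floor of 3 counts per library. Without control E14.5 section 2 this bound was 2.08-fold, and the call of Epha6 (adjusted p = 0.0404) was lost without control E14.5 section 2 or 3 or either E18.5 control (up to 0.131). Neither KO comparison called a member in this tissue with edgeR (0.0% and 0.108% of all genes called), with 1 member at E14.5 and 17 at E18.5 at an unadjusted p under 0.05, and DESeq2 called 0 and 5. The bCat cKO called 2, Plxnb1 (95.6 CPM against 27.9 and 26.5 CPM, 1.81, SE 0.22, adjusted p = 0.0213) and Epha1 (45.8 CPM against 9.18 and 6.34 CPM, 2.56, SE 0.38, adjusted p = 0.0434), 3.23% beside 1.22%. Plxnb1 was lost without either E18.5 control (up to 0.104) and Epha1 without control E14.5 section 2 or 3 or either E18.5 control (up to 0.124). Summed smooth muscle and pericyte markers were at 2598 CPM in the other tissue of this section and at 697 and 1138 CPM in the controls, and their part was not tested.

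Spots rich in markers of a cell type gave a further view, as a description without a test. The top 10% of spots for each marker list were compared with the remaining spots of the section. No share over all genes was computed for these ratios, so the counts of members below have no background. How many of the rich spots lay in muscle was not taken into account. Sema7a and Plxnd1 were at least 1.5 times higher in endothelium-rich spots of all 5 controls, with ratios of 2.40 to 3.30 for Sema7a and 1.52 to 3.52 for Plxnd1. In tendon-rich spots 9 members met this limit, among them Ntng1 (3.62 to 12.9), Epha5 (3.32 to 8.69), Sema3a (2.48 to 7.12), Ntn1 (2.40 to 4.33), Sema3d (2.17 to 3.40) and Unc5c (1.90 to 3.22). Mesothelium-rich spots had 6, led by Sema3d (2.10 to 12.4) and Epha1 (2.22 to 9.18), an Eph receptor of epithelia. Fibroblast-rich spots had 14, macrophage-rich spots 6 and cartilage-rich spots 4. None met the limit in spots rich in Schwann cell or in smooth muscle and pericyte markers, although Plxnb3 had ratios of 1.1 to 8.72 in Schwann-rich spots and passed the limit in 4 of 5 controls. At a share of 20% of spots, Plxnb3 met it in all 5 and Plxnd1 no longer did in endothelium-rich spots.

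The partners of these pathways were followed as a list of 59 other genes, among them Dcc, the L1 and contactin families, collapsin response mediators and plexin effectors. In muscle of the controls, 12 were higher and 28 lower at E18.5, 67.8% beside 65.6% of all genes called. Dscam, a netrin receptor, fell by 3.17 on the log2 scale (edgeR adjusted p = 0.000625), Dpysl4, a mediator of semaphorin signalling, by 2.88 (adjusted p = 1.5e-06) and Dcc by 1.92 (adjusted p = 0.00912). In the KO, 2 were higher and 1 lower at E14.5 (5.08% beside 2.08%), and 15 higher and 8 lower at E18.5 (39.0% beside 25.7%), where Dpysl4 was higher by 1.07 (adjusted p = 0.00411), L1cam, an adhesion molecule of axons and Schwann cells, by 1.35 (adjusted p = 0.00961), and Kdr, the vascular receptor for VEGF and also 1 of the 8 endothelial markers, was lower (-0.63, adjusted p = 0.0338). The KO effect differed between stages for 3 higher and 1 lower (6.78% beside 6.4%). In the bCat cKO 7 were higher and 1 lower (13.6% beside 8.8%), and Trem2 and Tyrobp, which form a receptor complex of macrophages, were among them (1.60 and 0.96). Trem2 and Tyrobp were not particular to the bCat cKO. In the KO they were higher by 1.12 and 1.13 at E14.5 and by 1.60 and 0.80 at E18.5. Against other tissue, 14 of 57 list genes were higher in muscle and 16 lower at E14.5 (52.6% beside 41.0%), and 4 higher and 20 lower at E18.5 (42.1% beside 57.9%). In the muscle center 11 of 58 were higher and 3 lower at E14.5 (24.1% beside 20.4%), and 11 higher and 4 lower at E18.5 (25.9% beside 20.9%). The center-to-periphery difference changed with stage for 3 upward and 2 downward (8.62% beside 8.17%), and none was called for it in a mutant. In other tissue 9 of 57 were higher and 8 lower at E18.5 (29.8% beside 30.6%), none was called in either KO, and 1 was higher in the bCat cKO (1.75% beside 1.22%).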

How the data were processed

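Visium libraries of formalin-fixed mouse diaphragm were counted by the authors with Space Ranger on mm10 (per the file headers, version 2.0.0 for 3 sections and 2.0.1 for 5), and the deposited values are raw UMI counts per probe-targeted gene and spot. The deposited Moran's I, a score of spatial autocorrelation per gene and section, was computed by the authors' Space Ranger run. Spots with at least 1000 UMIs were kept. Muscle spots had a mean log-normalised level of 9 muscle genes above the Otsu threshold of the section; center and periphery were the 15% with the highest endplate and myotendinous scores. UMIs were summed per section and region and tested in R 4.3.3 with edgeR 4.0.16 (filterByExpr with a minimum count of 10, TMM, quasi-likelihood F test, Benjamini-Hochberg adjustment over all genes, threshold 0.05), after the script was tested on simulated data. DESeq2 1.42.0, other scalings, filters and region definitions, and leaving out each control section in turn were the alternatives. The residual degrees of freedom came from the controls. No test pooled tables, and 0 columns lacked a sample.

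The members, gene lists and tests were chosen with earlier results of these data known. In each of 17 comparisons, 2 of them added after the data were seen, members were picked as every called member up to 12 or else the 12 largest log2 fold changes, plus a fixed set of members (Sema3a, Sema3c, Sema3d, Sema6b, Nrp1, Nrp2, Plxna1, Plxnd1, Efnb1, Efnb2, Efna5, Epha4, Ephb4, Ntn1, Ntn4, Unc5b and Unc5c). Not every picked member has its fold change in the text. Others, such as Efna1, Plxna3, Sema3b and Sema6c, were chosen after their values were seen. Levels behind the counts rest on 1335256 to 75800909 UMIs per sum, and counts of 0 are read against 3 counts per library, which covers counting error alone. Promoter windows came from RefSeq on GRCm38.p6.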

Additional observations from a re-analysis of the deposited data

Results flagged for a closer look

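In 27 cases a member's effect differed between 2 groups by a direct test of the difference with edgeR (adjusted p under 0.05 over all genes, values as differences of log2 fold changes). The CaV1.1 KO effect in muscle was lower at E18.5 than at E14.5 for Ntng2 (-2.13), Sema3c (-1.75) and Sema6a (-0.795). It was higher at E18.5 for Ntn5 (2.34), Plxnb3 (1.9), Sema5b (1.55), Ephb1 (1.15), Plxnb1 (1.11), Ntn3 (1.06), Ntn4 (1.02) and Efna4 (0.936). None of these 11 was called without control E14.5 section 3.

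The center-to-periphery difference was shifted toward the center in the E14.5 KO for Ntng2 (1.64) and Sema3f (1.19), and toward the periphery in the bCat cKO for Sema3c (-0.87). Ntng2 was lost without control E14.5 section 1, Sema3f without control E14.5 section 1 or 2 or either E18.5 control, and Sema3c without control E18.5 section 2 (adjusted p up to 0.118).

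Between E14.5 and E18.5 in the controls, the center-to-periphery difference moved toward the center for Sema3c (1.55), Sema3f (1.25), Epha2 (1.03), Sema7a (1.02), Efnb2 (0.765), Efna5 (0.746), Sema5a (0.689), Ntng2 (0.678), Efnb1 (0.669) and Nrp2 (0.542), and toward the periphery for Sema3e (-1.21), Plxna3 (-0.73) and Sema3b (-0.559). With regions set by distance to the border, where the E18.5 center held most muscle spots of the controls, Efna5 and Efnb1 moved the opposite way. Sema3c, Sema3f, Sema5a and Efnb1 kept their calls when any 1 control section was left out; the other 9 did not (adjusted p up to 0.239), and each of the 5 controls ended at least 1 of them.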

How the results depend on the processing

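Over 172 pairs of a named member and a comparison, 78 kept direction and call under every alternative; of the single results, 1835 were unchanged in direction and call, 333 lost the call and 6 turned direction. Those 6 included Nrp2 (-0.16) and Ntn4 (-0.38) between stages in muscle with total UMIs. The others came with regions set by distance. They were Efnb1 (-0.19) and Efna5 (-0.19) in the E18.5 center, and Efnb1 (-0.34) and Efna5 (-0.33) in the change of the center with stage. At E18.5 these regions compared most muscle spots of the controls with the edge, so they could not test the endplate band. The cause of the 6 turns was not tested. Counts of called members moved as follows. With total UMIs, the E18.5 KO gave 42, the KO effect by stage 30, the center-to-periphery difference 1 in the E18.5 KO and 2 in the bCat cKO. With no filter on low counts, the E14.5 KO gave 6 and that difference 1 in the E18.5 KO and 2 in the bCat cKO. With DESeq2, the E14.5 KO gave 6, the E18.5 KO in other tissue 5, the E18.5 center 12, and the center-to-periphery difference 0 in the E14.5 KO, 0 in the bCat cKO and 5 by stage. With border spots left out, muscle gave 0 in the E14.5 KO, 16 in the E18.5 KO, 5 in the bCat cKO and 3 for the KO effect by stage, and other tissue 9 by stage and 1 in the bCat cKO. Without the section block, the centers gave 15 and 6 and the center-to-periphery difference 0 in the E14.5 KO, 0 in the bCat cKO and 3 by stage. For that difference, regions of 10% gave 1, 0 and 8 and regions of 25% gave 1 and 0 in the E14.5 KO, the bCat cKO and (10% alone) by stage, scaling to the 9 muscle genes gave 4 and 2 in these mutants, and no minimum of UMIs per spot gave 1 in the E14.5 KO. At 20% of spots, marker-rich spots gave 1 member for endothelium, 1 for Schwann cells, 2 for mesothelium and 3 for macrophages.

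Leaving out 1 control section gave, in muscle, 0 to 4 for the E14.5 KO, 16 to 28 for the E18.5 KO, 3 to 7 for the bCat cKO and 0 to 11 for the KO effect by stage, and in other tissue 9 to 22 by stage, 0 to 2 for the E18.5 KO and 0 to 2 for the bCat cKO. For the E18.5 center it gave 14 to 24, and for the center-to-periphery difference 0 to 2 in the E14.5 KO, 0 to 1 in the E18.5 KO, 0 to 2 in the bCat cKO and 7 to 13 by stage. The replicate numbers of the controls were not used to pair the sections. Correlations of same-numbered deviations were -0.18 and -0.23. With 2 sections at E18.5 their deviations mirror each other, so these correlations cannot decide whether the numbers mark a pairing. With a replicate block, 31 of 41 calls held, 10 were lost, and 12 members were called by stage in other tissue. The 1 section per mutant group, the 2 controls at E18.5 and the few UMIs of members such as Epha10 limit these results.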
